A study of Mus musculus with 8 samples.

Results

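Astrocytes are the glial cells that clear neurotransmitter, buffer potassium and water, supply neurons with metabolites and line the blood vessels of the brain. They take up released glutamate through Slc1a2 and Slc1a3, turn it into glutamine with Glul, and are coupled to each other by gap junctions made of Gja1 and Gjb6. Gfap and Vim, the intermediate filaments of the astrocyte skeleton, and the metallothioneins are known to rise when astrocytes respond to injury or stress. The genes described here are 31 astrocyte genes chosen by symbol, and the deposited count table holds each of them under 1 identifier, among 55416 genes in all. The rule that chose them uses no measured value, but the genes were chosen with earlier results of these data known.

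Cortical mRNA was compared between 4 libraries from heterozygous knock-in mice (genotype AGO2_L192P/+, called L192P here) and 4 from wild-type mice (WT). Ago2 encodes Argonaute 2, which is guided by miRNAs to target mRNAs and represses them, and the knock-in replaces a leucine of this protein by a proline. The line was produced by CRISPR/Cas editing and kept by outcrossing to wild-type mice (C57/Bl6 at the founder stage), and L192P animals, as heterozygotes, keep 1 wild-type copy of Ago2. Whether the WT animals were littermates of the L192P animals is not given in the sources used here. The allele is not limited to 1 cell type, and no treatment, age or sex is given in the labels. The tissue was bulk cerebral cortex, in which fewer cells of a type and less RNA per cell cannot be told apart.

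The libraries held between 20396357 and 43575900 counts, with WT replicate 2 the deepest, and all 31 genes had counts in every library and received an adjusted p. Replicate 1 of each genotype had 0.93 (L192P) and 1.82 (WT) normalized counts of Xist, the RNA of the inactive X chromosome, against 5185 to 7257 in the other 6 libraries. Genes of the Y chromosome together had 3547 (L192P) and 3534 (WT) raw counts in replicate 1, against 186 to 573 in the other 6 libraries. Normalized counts are counts divided by a DESeq2 size factor for the library. Levels of RNA in libraries with the same replicate number moved together, so each test is given without and, where that changes a call, with the replicate number as a block.

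No astrocyte gene passed the test between L192P and WT cortex in the comparison of genotype alone. With DESeq2, 0 of 31 genes had an adjusted p under 0.05, where 1.36% of the 18627 tested genes were called, and adjusted p-values ran from 0.504 to 0.999. An unadjusted p under 0.05 was found for 1 of 31, Mt2, against 9.44% of all tested genes. edgeR and limma voom called 0 of 31 as well, but they called only 53 and 45 genes in all. The log2 fold change (L192P over WT) was above 0 for 11 genes and below 0 for 20, with a median of -0.012 beside 0.0019 over all tested genes. The extremes were -0.40 for Mt2 and 0.30 for Vim, and 27 of 31 genes lay within 0.2 of 0. The median size of the change without its sign was 0.10, the same to 2 decimals as over all tested genes.

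The precision differed from gene to gene. The standard error of the log2 fold change had a median of 0.15 over the 31 genes, against 0.096 over those tested genes that averaged 50 or more normalized counts. For 22 of 31 genes the 95% interval stayed within -0.5 and 0.5, so larger changes than that were outside the interval for these genes. In 0 of 31 genes did the 4 L192P values lie wholly above or below the 4 WT values, which was seen for 5.97% of all tested genes. The lowest p of an exact two-sided permutation test was 0.0571, for Mt2, where 4 against 4 libraries cannot give less than 0.0286.

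**Figure D1:**
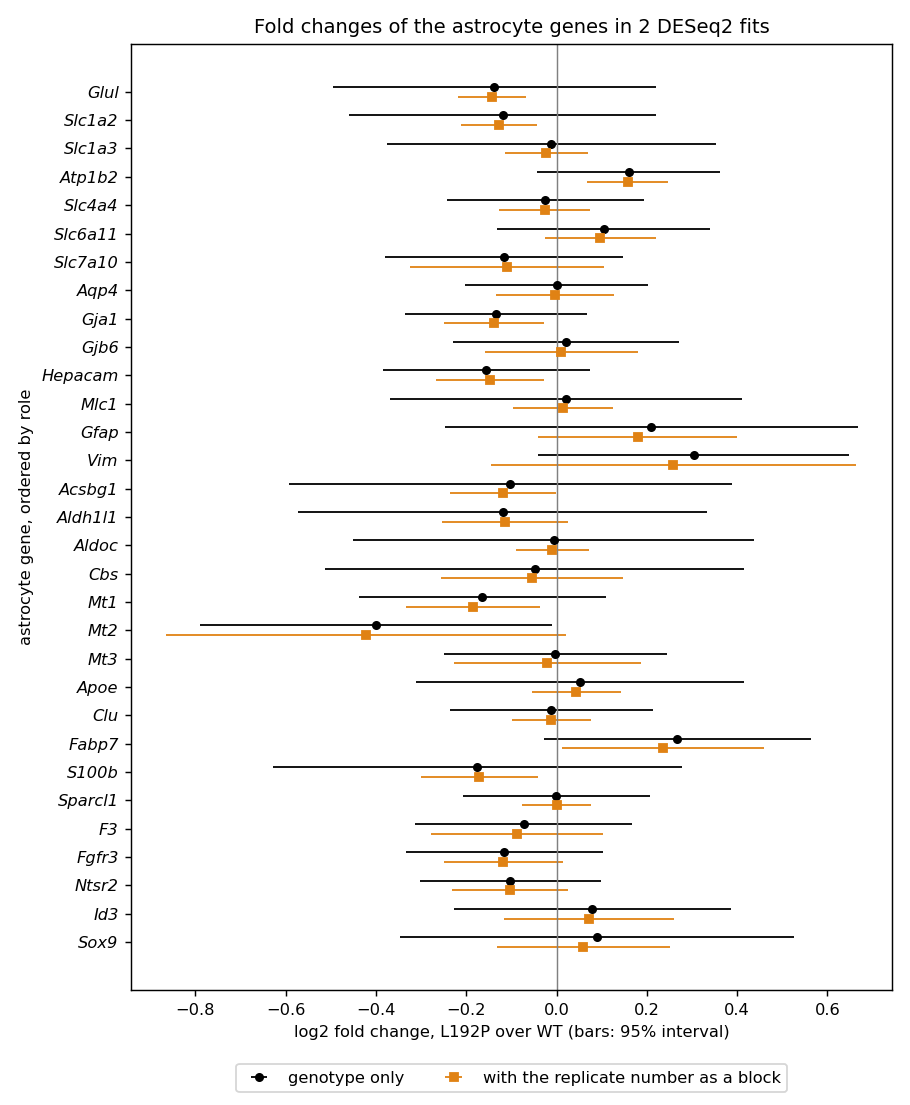
Log2 fold change of each astrocyte gene, L192P over WT, in the DESeq2 fit of genotype alone (black circles) and in the fit with the replicate number as a block (orange squares), with bars for the 95% interval. Points lie between -0.42 (Mt2, blocked) and 0.30 (Vim), and the bars of most genes are shorter with the block.

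With the replicate number as a block, 2 of 31 genes (6.45%) passed, Glul (lower) and Atp1b2 (higher), where 4.25% of 12536 tested genes did. The median standard error of the 31 genes was then 0.066, less than the 0.089 of all genes tested in that fit. An unadjusted p under 0.05 was found for 9 genes (29.0%), 7 of them lower and 2 higher in L192P, against 14.1% of all genes. Blocked edgeR called 1 gene, Glul, against 3.04% of genes. The share called was thus near that of all genes, while the share at an unadjusted p under 0.05 was above it. The lower genes at that p were Slc1a2, Gja1, S100b, Glul, Hepacam, Acsbg1 and Mt1, and the higher ones Atp1b2 and Fabp7. The median blocked log2 fold change was -0.023 for the astrocyte genes and -0.0036 for all genes.

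Within the same-numbered pairs, 7 of 31 genes moved in 1 direction in all 4 pairs, against 23.8% of all tested genes. Lower in each pair were Aldh1l1, Slc1a2, S100b, Glul, Hepacam and Mt2, and Atp1b2 was higher in each. In pair 1 the L192P library was the lower one for 28 of 31 genes, with a median log2 difference of -0.15. In pair 2 it was lower for 20, in pair 3 higher for 20 and in pair 4 lower for 17, with medians of -0.069, 0.033 and -0.013. The pairs therefore did not share a direction over the list.

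Glul, the glutamine synthetase that closes the glutamate cycle, was the most abundant astrocyte gene and the one with the smallest blocked p. L192P replicates 1 to 4 had 24580, 38431, 39043 and 36651 normalized counts and WT replicates 1 to 4 had 28163, 40900, 42080 and 41525. Both replicate 1 libraries were far below the rest, and among replicates 2 to 4 every L192P value was under every WT value. L192P averaged 34676 ± 6807 normalized counts and WT 38167 ± 6687 (SD, n = 4). Its log2 fold change was -0.14 (SE 0.18, adjusted p = 0.927) with genotype alone and -0.14 (SE 0.039, DESeq2 adjusted p = 0.00948) with the block, where edgeR gave an adjusted p of 0.0426. Pair by pair the log2 difference was -0.20, -0.090, -0.11 and -0.18. Without the replicate 1 pair, the blocked DESeq2 fit gave -0.13 with an adjusted p of 0.0714, so the call did not hold in 3 pairs.

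The glutamate transporters Slc1a2 (GLT-1) and Slc1a3 (GLAST), which remove glutamate from the synapse, had smaller or less even differences. Slc1a2 stood at 20596, 30105, 30840 and 33429 normalized counts in L192P replicates 1 to 4 and at 24399, 31089, 33102 and 36315 in the WT replicates. The L192P library was the lower one in each pair, although the groups overlapped. Its log2 fold change was -0.12 (SE 0.17, adjusted p = 0.939), and -0.13 (SE 0.043, adjusted p = 0.0571) with the block. Slc1a3 lay between 6156 and 9711 normalized counts in the L192P libraries and between 6847 and 9495 in the WT libraries, with a log2 fold change of -0.012 (SE 0.19) whose direction flipped with total-count size factors, in the 6 Xist-high libraries and when single libraries were left out.

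Among the other transporters, Atp1b2, the beta subunit of the glial sodium-potassium pump, was the gene called higher with the block. L192P replicates 1 to 4 held 7415, 8879, 10341 and 9299 normalized counts, and the WT replicates held 6679, 8471, 8679 and 8328. The lowest value of all was WT replicate 1 and the highest L192P replicate 3, and within replicates 2 to 4 the genotypes did not overlap. The log2 fold change was 0.16 (SE 0.10, DESeq2 adjusted p = 0.701), and with the block 0.16 (SE 0.046, adjusted p = 0.0199), with pairwise log2 differences of 0.15, 0.068, 0.25 and 0.16. Blocked edgeR gave an adjusted p of 0.0532, and the blocked DESeq2 fit without the replicate 1 pair gave 0.0741. Slc4a4, a sodium bicarbonate cotransporter, Slc6a11, a GABA transporter, and Slc7a10, which exchanges D-serine and other small amino acids, had log2 fold changes of -0.025 (SE 0.11), 0.10 (SE 0.12) and -0.12 (SE 0.13), and each changed sign without some single library, Slc4a4 also with total-count size factors. The exons of Slc7a10 are overlapped over 50.2% of their bases by Lrp3 on the other strand, which averaged 1909 normalized counts, and whether reads were counted by strand is not given in the sources used here.

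The genes of the water channel, the junctions and adhesion had small fold changes. Aqp4, the water channel of the astrocyte endfoot, had 1765 ± 239.8 normalized counts in L192P beside 1765 ± 177.9 for WT (SD, n = 4), and its log2 fold change of 0.00039 (SE 0.10) was below 0 with TMM size factors, limma voom and the block. The 95% interval of Aqp4, from -0.20 to 0.20, was the limit on a change in either direction. Gja1 and Gjb6, which encode the connexins of astrocyte gap junctions, had log2 fold changes of -0.13 (SE 0.10) and 0.022 (SE 0.13), the second of which was below 0 in limma voom. For Mlc1, a membrane protein of the endfoot whose loss causes a leukodystrophy in people, and Hepacam, its adhesion partner, the values were 0.021 (SE 0.20) and -0.16 (SE 0.12). With the block, Gja1 and Hepacam had unadjusted p-values under 0.05 in DESeq2 but adjusted p-values of 0.167 and 0.179.

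Gfap and Vim, the intermediate filament genes, were both higher on average in L192P without passing the test. Gfap measured 2438, 3843, 4715 and 3020 normalized counts in L192P replicates 1 to 4 and 2664, 3010, 3706 and 2735 in the WT replicates. Its lowest and its highest value were both L192P libraries, and pairs 2 to 4 were higher in L192P while pair 1 was lower. The log2 fold change was 0.21 (SE 0.23, adjusted p = 0.901), and 0.18 (SE 0.11, adjusted p = 0.515) with the block. In a blocked fit of the 6 Xist-high libraries, added after seeing the data, it was 0.28 (SE 0.067, DESeq2 adjusted p = 0.00187), where 4.13% of 13858 genes were called and 2 of the 31 were, Gfap and Fabp7. Without the block the same 6 libraries gave an adjusted p of 0.663 for Gfap.

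Vim measured 398.9, 745.4, 794.4 and 509.1 normalized counts in L192P replicates 1 to 4 beside 443.5, 567.7, 461.7 and 506.9 in the WT replicates. L192P replicates 2 and 3 stood above every other library, and replicate 4 was level with its WT counterpart. The log2 fold change of Vim was 0.30 (SE 0.18, adjusted p = 0.635), the highest of the 31 genes. Vim is also made by endothelial cells and fibroblasts, and the summed level of 8 meningeal fibroblast genes was 1119 to 1947 normalized counts in the L192P libraries, 937.5 to 1279 in the WT libraries, with L192P replicates 2 and 3 the highest libraries. All 8 of these genes had log2 fold changes above 0 (median 0.61), 2 of them were called, and none was at 0 throughout. L192P replicate 4, where Vim was level with WT, also had a higher fibroblast sum (1427) than every WT library. The summed level of 10 endothelial genes was 1494, 2473, 3159 and 2953 normalized counts in L192P replicates 1 to 4. In the WT replicates it was 1829, 2672, 2148 and 2859. The part of either cell type in the Vim values was not tested.

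**Figure D2:**
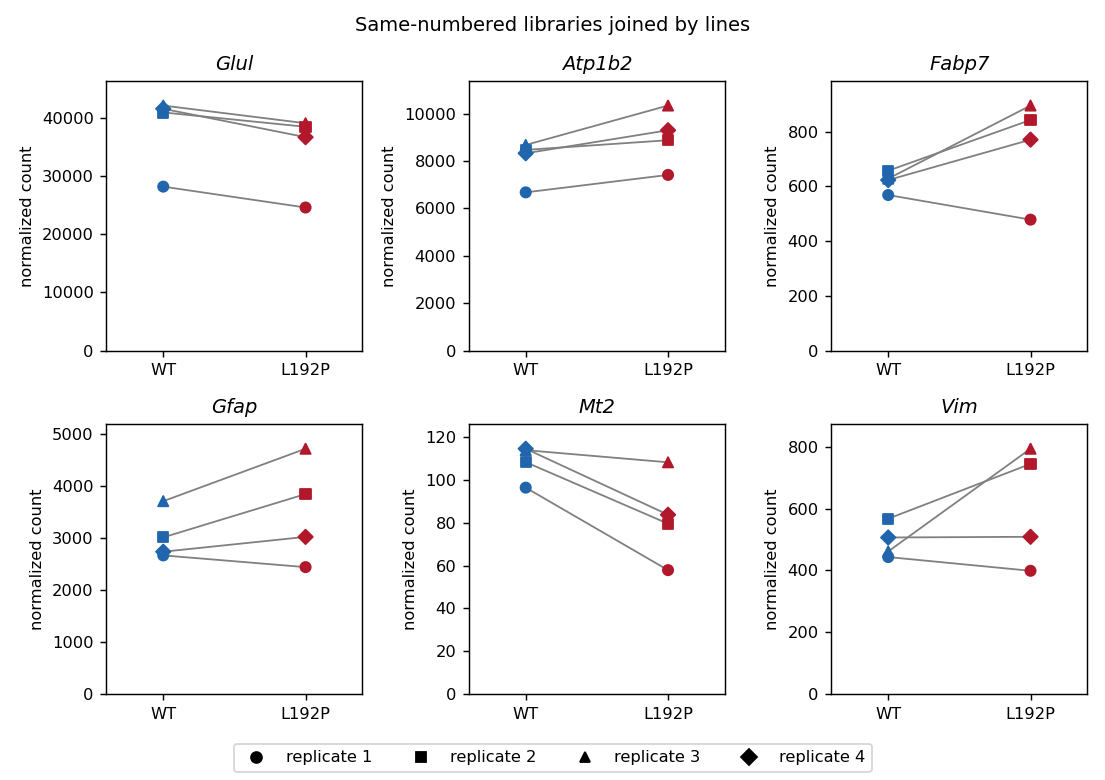
Normalized counts of 6 astrocyte genes in each library, WT in blue and L192P in red, with same-numbered libraries joined by a line and marker shapes for the replicate number. Along each of the 4 lines Glul and Mt2 are lower and Atp1b2 is higher in L192P, and Fabp7, Gfap and Vim are lower in L192P in replicate 1 and higher or level in replicates 2 to 4.

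The 4 enzymes all had small negative fold changes. Aldh1l1, the folate enzyme widely used to mark astrocytes, lay between 814.7 and 1312 normalized counts in L192P libraries and between 846.9 and 1471 in WT libraries, with a log2 fold change of -0.12 (SE 0.23). Aldoc, a glycolytic aldolase, averaged 15789 ± 3331 (L192P) and 15862 ± 3201 (WT) normalized counts, which gave a log2 fold change of -0.0066 (SE 0.23). Those of Acsbg1, which activates fatty acids, and of Cbs, which makes cystathionine from homocysteine, were -0.10 (SE 0.25) and -0.048 (SE 0.24). Aldoc was above 0 with total-count size factors, and single libraries turned the sign of each of the 4 enzymes when left out. Idh3a on the other strand overlaps 28.6% of the exon bases of Acsbg1 and averaged 6570 normalized counts.

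Metallothioneins are small cysteine-rich proteins that bind zinc and copper, and the 3 family members here lie in 1 cluster on chromosome 8. Mt1 and Mt2 are transcribed through metal response elements, whose core was searched on both strands as TGCACNC or TGCGCNC in RefSeq promoter windows (GRCm38.p6) of 250 bases before and 50 after the start. The window of Mt2 held 4 matches and that of Mt1 held 3, numbers reached by 0.588% and 2.27% of 27025 genes. That of Mt3 held 1, where 28.2% of genes held 1 or more. The stretches before the start that hold a match are shown because Mt2 had the lowest p of the 31 genes, with the core in capitals (the last Mt2 core is on the other strand), and each was located in GRCm39 with its window by exact match, on the plus strand. The Mt2 stretches are chr8:94899012-94899041, chr8:94899107-94899136 and chr8:94899185-94899214, all inside the Mt2 gene of GENCODE, which starts at 94898819, and the Mt1 stretch is chr8:94905683-94905712.
Mt2 upstream a: agcatcgcctcTGCACCCggcccctcgggc
Mt2 upstream b: cgcagacccttTGCGCTCagctcctttgct
Mt2 upstream c: ggggggagggcGTGTGCAggctctgtccca
Mt1 upstream: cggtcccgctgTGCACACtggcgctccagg
A match is a description of these letters and not a measured site.

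Mt2 had the largest difference of the list. L192P replicates 1 to 4 had 57.9, 79.7, 108.4 and 83.9 normalized counts and the WT replicates had 96.5, 108.5, 114.1 and 114.7. All L192P libraries but replicate 3 lay below every WT library, and the L192P value was the lower one in each pair. L192P averaged 82.5 ± 20.7 and WT 108.4 ± 8.43 normalized counts (SD, n = 4), with a log2 fold change of -0.40 (SE 0.20, unadjusted p = 0.0442, DESeq2 adjusted p = 0.504), and the block gave -0.42 (SE 0.23, adjusted p = 0.390). Mt2 had the fewest normalized counts of the 31 genes, and Gm45774 on the opposite strand, with a mean of 8.45 normalized counts, overlaps 82.4% of its exon bases. Mt1 had 2093 ± 490.0 normalized counts in L192P against 2344 ± 313.7 for WT, a log2 fold change of -0.16 (SE 0.14), and Mt3, the brain form, had one of -0.0025 (SE 0.13) that turned positive in the 6 Xist-high libraries and with total-count size factors. Of 8 further genes of the metal response, among them the sensor Mtf1 and zinc transporters, 0 were called (1 at an unadjusted p under 0.05), 5 were above and 3 below 0, and the lowest p belonged to Slc30a3, a zinc transporter of synaptic vesicles (log2 fold change -0.16, SE 0.066, DESeq2 adjusted p = 0.289).

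The secreted and lipid-binding group held both Fabp7 and the lipoprotein genes. Fabp7, a fatty acid binding protein of astrocytes and of radial glia, had 478.3, 842.1, 894.7 and 770.2 normalized counts in L192P replicates 1 to 4 and 568.2, 657.0, 627.9 and 622.8 in the WT replicates. L192P replicate 1 was the lowest of all libraries and the other 3 L192P libraries were the highest. With genotype alone the log2 fold change was 0.27 (SE 0.15, adjusted p = 0.612), and with the block 0.24 (SE 0.11, adjusted p = 0.311). Within the 6 Xist-high libraries it was 0.39 (SE 0.097, DESeq2 adjusted p = 0.00447), the 1 call among the 31 genes where 3.46% of 14437 genes passed. Without L192P replicate 1 alone it was 0.43 (SE 0.095, DESeq2 adjusted p = 0.00149), again the 1 call of 31, where 1.61% of 17125 genes passed. The call of Fabp7 thus depended on the library that was left out, and the value of pair 1 ran the other way, at -0.25 against 0.36, 0.51 and 0.31 in pairs 2 to 4.

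Within replicates 2 to 4, 5 of 31 genes (16.1%) had genotypes that did not overlap, as 19.0% of all tested genes did. Atp1b2 and Fabp7 were the higher ones in L192P, and S100b, Glul and Mt2 the lower ones. For Mt2 the gap was very small, from 108.38 normalized counts in L192P replicate 3 to 108.46 in WT replicate 2. S100b, a calcium-binding protein that astrocytes release, had 1456, 2057, 2384 and 2256 normalized counts in L192P replicates 1 to 4 beside 1553, 2662, 2534 and 2460 in the WT replicates. Its log2 fold change was -0.18 (SE 0.23, adjusted p = 0.927), and -0.17 (SE 0.066, adjusted p = 0.133) with the block. Apoe, the main lipid carrier of the brain, Clu, another apolipoprotein, and Sparcl1, a matrix protein that favours synapse formation, had log2 fold changes of 0.051 (SE 0.19), -0.012 (SE 0.11) and -0.00080 (SE 0.11). The signs of Clu and Sparcl1 were positive with total-count size factors, and that of Apoe depended on single libraries.

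The receptors and transcription regulators showed no difference past the test. Fgfr3, a receptor for fibroblast growth factors, Ntsr2, a neurotensin receptor, and F3, the tissue factor that starts blood clotting, had log2 fold changes of -0.12 (SE 0.11), -0.10 (SE 0.10) and -0.073 (SE 0.12). The sign of F3 turned when L192P replicate 1 was left out. Sox9, which directs astrocyte identity, and Id3, an inhibitor of helix-loop-helix factors that vessels also express, had values of 0.089 (SE 0.22) and 0.079 (SE 0.16), both of which fell below 0 in some fits with 1 library left out. Sox9 was highest in L192P replicate 2, at 1172 normalized counts, and lowest in L192P replicate 1, at 580.2.

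**Figure D3:**
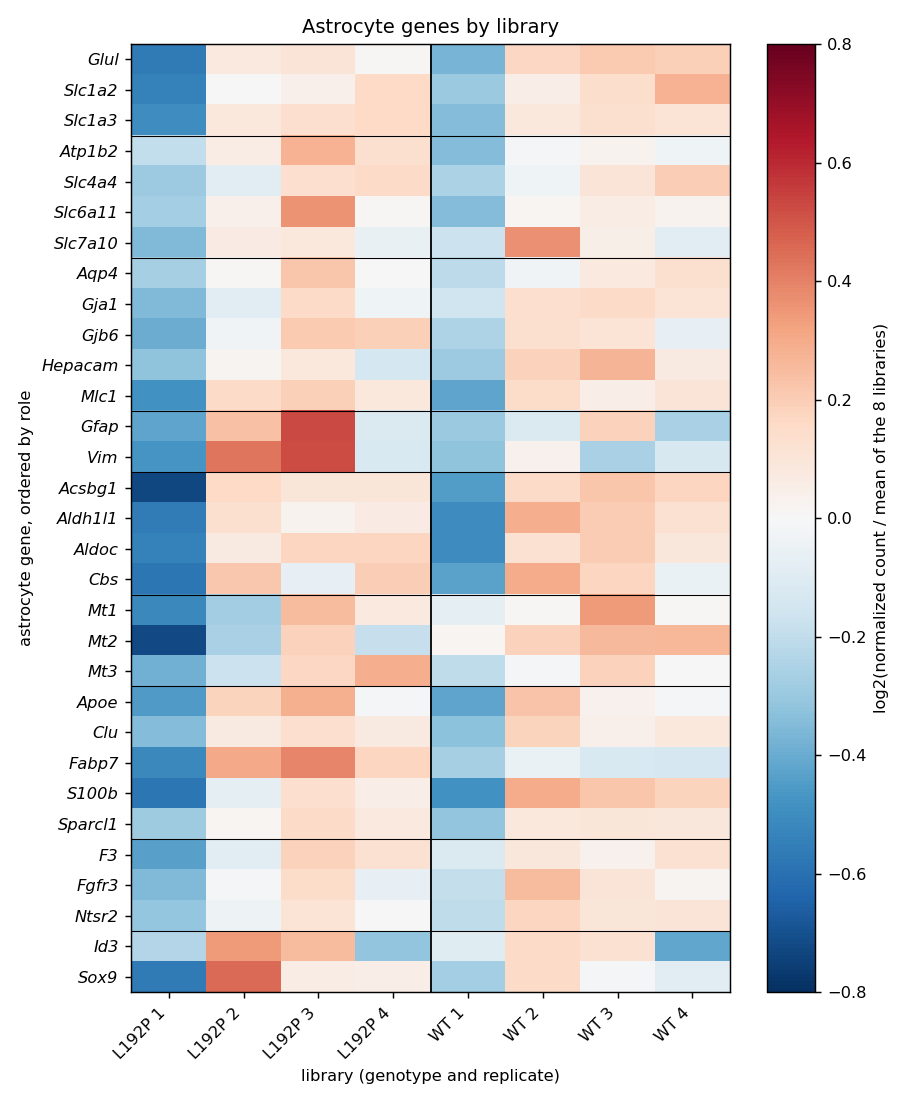
Each astrocyte gene (rows, grouped by role) in each library (columns), as log2 of its normalized count over its mean in all 8 libraries. The columns of replicate 1 of both genotypes are blue almost throughout, and the other 6 columns do not divide by genotype.

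The libraries of replicate 1 stood apart from the other replicates in both genotypes, by more than the genotypes stood apart from each other. Both replicate 1 libraries lay below all other 6 libraries for 28 of 31 genes, the exceptions being Mt1, Mt2 and Id3, while this held for 12.0% of the 13422 genes that averaged 50 or more normalized counts. L192P replicate 1 was the lowest library of its genotype for 30 genes and the lowest of all 8 for 27. Against the mean of the other 3 L192P libraries, its median log2 difference was -0.55, from -0.85 for Acsbg1 to -0.31 for Hepacam. For WT replicate 1 the median was -0.34, from -0.72 for S100b to -0.073 for Id3. The 31 genes together took 0.641% and 0.680% of all counts in the replicate 1 libraries and 0.895% to 0.963% in the others.

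The spread within each genotype was therefore wider with replicate 1 than without it. The coefficient of variation had a median of 19.6% in L192P and 13.4% in WT over 4 libraries, and of 7.92% and 5.60% over replicates 2 to 4. The 2 replicate 1 libraries were also the Xist-low libraries and those with the most counts on the Y chromosome. Their share of counts on mitochondrial genes was 0.782% and 1.05%, against 1.32% to 1.96% in the other 6. The part of these differences in the astrocyte values was not tested, and with 1 library of each genotype the Xist-low pattern gave no comparison of its own.

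The same contrast was taken for genes of other cells of the cortex. The median log2 ratio of replicate 1 to the other 6 libraries was -0.42 for the 31 genes and -0.45 for 28 further astrocyte genes, 24 of which were below all other 6 libraries in both. Neuronal genes stood at -0.0068, with 0 of 14 below. Endothelial genes had a median of -1.13 (9 of 10 below), mural cell genes -0.63 (3 of 6), microglial genes -0.54 (10 of 12), oligodendrocyte precursor genes -0.44 (4 of 6) and oligodendrocyte genes -0.26 (6 of 10). Genes of meningeal fibroblasts, choroid plexus, ependyma and the erythroid lineage had medians of -0.33, -0.16, -0.20 and -0.28, with 0 of 8, 0 of 7, 2 of 7 and 0 of 5 below. None of the markers in these lists was at 0 throughout, and how specific each is to its cell type was not tested.

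**Figure D4:**
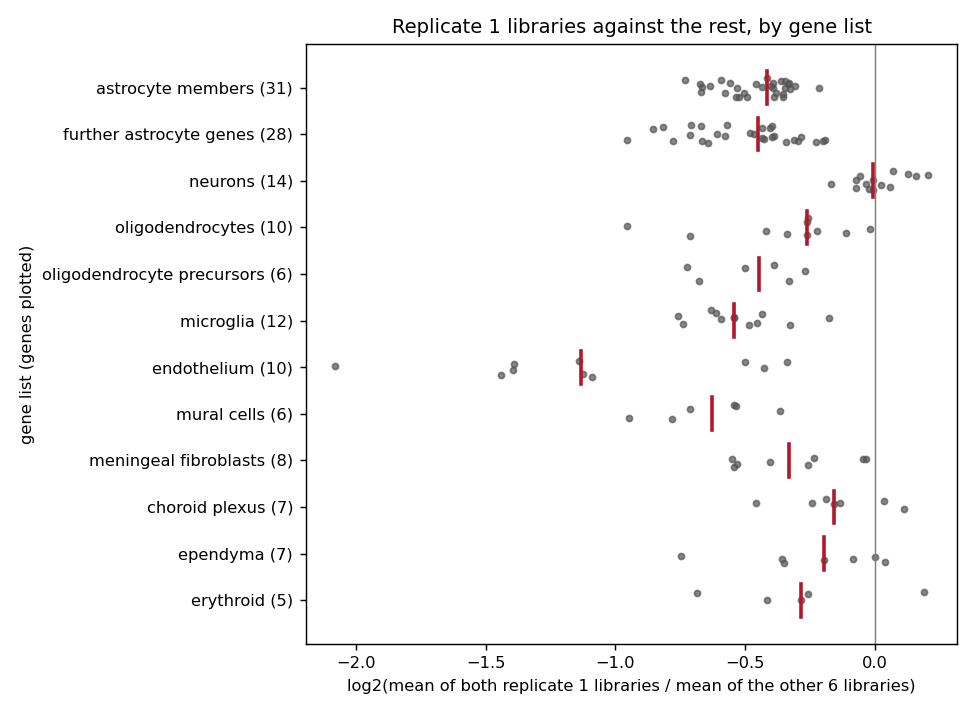
Log2 ratio of the mean normalized count in both replicate 1 libraries to the mean in the other 6, 1 point per gene, for the astrocyte genes and for lists of genes of other cell types, with a red bar at the median of each list. The neuronal genes lie around 0, and the astrocyte, microglial and endothelial genes lie to the left.

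Further genes of astrocytes and of the pathways of the 31 genes were compared between the genotypes. Among 28 further astrocyte genes 0 were called with genotype alone (4 at an unadjusted p under 0.05), 13 were above and 15 below 0, and the median log2 fold change was -0.0062. The block called 2 of them. Agt, the angiotensinogen that astrocytes secrete in the brain, had 295.2, 278.8, 616.9 and 303.1 normalized counts in L192P against 196.7, 193.2, 252.0 and 153.4 in WT. The groups did not overlap, and L192P replicate 3 was far above the rest. Its log2 fold change was 0.91 (SE 0.32, DESeq2 adjusted p = 0.159), and 0.85 (adjusted p = 8.89e-06) with the block. The other was Htra1, a secreted protease, at -0.21 (DESeq2 adjusted p = 0.0198 with the block, 0.699 without).

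Of 14 genes that handle glutamate and glutamine, 1 was called. Slc7a11, the cystine-glutamate exchanger that releases glutamate from astrocytes, had 648.4, 883.1, 921.3 and 784.6 normalized counts in L192P beside 617.4, 607.8, 590.9 and 647.4 in WT libraries. Every L192P value was above every WT value, by very little in replicate 1. For Slc7a11 the log2 fold change was 0.39 (SE 0.11, DESeq2 adjusted p = 0.0246), edgeR gave an adjusted p of 0.138, and the blocked DESeq2 fit gave 0.0104. The block added Slc17a6 (higher) and Slc17a7 (lower), vesicular glutamate transporters of neurons, with blocked log2 fold changes of 0.71 (DESeq2 adjusted p = 0.0299) and -0.13 (0.0431). In the list of 11 water and potassium partners 0 were called (3 at an unadjusted p under 0.05), with 3 above and 8 below 0 and a median log2 fold change of -0.064.

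Genes known to rise in reactive astrocytes were not called. Of 34 such genes 29 were tested, 0 passed (4 at an unadjusted p under 0.05), 20 were above and 9 below 0, and the median log2 fold change was 0.14. How specific these genes are to astrocytes was not tested. The microglial and endothelial lists had medians of 0.23 and 0.26, and the neuronal and oligodendrocyte lists had medians of -0.049 and -0.11. The lowest p belonged to Serping1, a complement inhibitor, with means of 81.3 (L192P) and 54.4 (WT) normalized counts (log2 fold change 0.56, SE 0.25, DESeq2 adjusted p = 0.394). Lcn2, which rises steeply in inflammation, was at 0.83 normalized counts on average, too low to test. Among 10 genes of lipoprotein handling 0 were called (1 at an unadjusted p under 0.05), with Nr1h2, a sterol-sensing nuclear receptor, at -0.18 (DESeq2 adjusted p = 0.450). Of 15 genes of glial transcription and differentiation 0 were called (1 at an unadjusted p under 0.05), Id2 had the lowest p (-0.16, DESeq2 adjusted p = 0.508), and the block called Sox2, a progenitor factor that astrocytes keep, at 0.24 (DESeq2 adjusted p = 0.0498).

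With genotype alone, the lists of other cell types gave few calls between the genotypes, all higher in L192P. Gad2, which makes GABA in inhibitory neurons, was called among 14 neuronal genes (log2 fold change 0.34, SE 0.093, DESeq2 adjusted p = 0.0235), and the organic anion transporter Slc22a6 and the GABA transporter Slc6a13 were called among the 8 meningeal fibroblast genes (0.64 and 0.81, adjusted p = 0.0203 and 0.0229). edgeR called none of these genes nor Slc7a11. In the remaining lists 0 genes were called, with unadjusted p-values under 0.05 for 3 microglial genes, 1 ependymal gene and 0 of the rest. The smallest p was that of Cx3cr1 for microglia (0.33, 11 of 12 genes above 0) and Mog for oligodendrocytes (-0.12, 9 of 10 genes below 0). It was that of Olig2 for oligodendrocyte precursors (-0.20), Vwf for endothelium (0.69) and Higd1b for mural cells (-0.46). For choroid plexus it was that of Otx2 (0.48), for ependyma Tmem212 (0.97) and for the erythroid list Alas2 (0.45). The block also called Cx3cr1, the endothelial transporter Slco1a4 and the collagen gene Col1a2, each higher in L192P, and the neuronal gene Slc17a7 given above, which was lower. The summed microglial level was 6517 to 11960 normalized counts over the L192P libraries, 7249 to 9151 over the WT libraries. L192P replicates 2 to 4, at 11489, 11960 and 9978, lay above every WT library, and L192P replicate 1 was the lowest library of all.

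Levels were compared between genes as normalized counts per kb of exon, where the exons of all annotated transcripts of a gene were joined. The order therefore also rests on annotated length, such as 11331 bases for Cbs, 9890 for Slc7a10 and 950 for Mt2. In WT, Glul was first with 9667 ± 1694 (SD, n = 4), followed by Apoe with 6371 ± 1139, Mt3 with 4025 ± 445.7, Sparcl1 with 3683 ± 480.8 and Aldoc with 3397 ± 685.4. The classical marker Gfap stood at 530.3 ± 83.3 and Aldh1l1 at 147.0 ± 32.7, and the lowest were Cbs with 55.4 ± 11.6 and Slc7a10 with 48.9 ± 8.29. Neighbours in this order overlapped over the 4 WT libraries except below Apoe, Mt1, S100b and Vim. The first 11 places were held by the same genes in the same order in L192P.

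**Figure D5:**
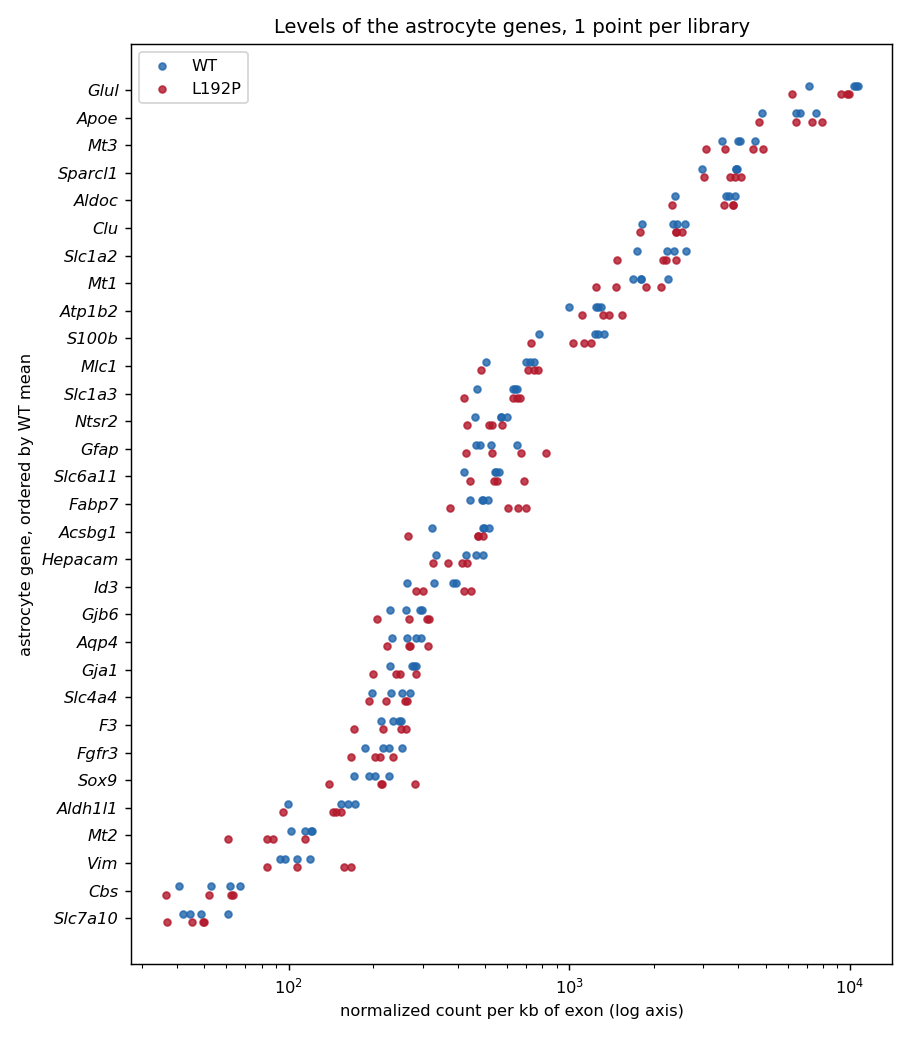
Level of each astrocyte gene in each library as normalized counts per kb of exon on a log axis, WT in blue and L192P in red, ordered by the WT mean. The genes span from 48.9 (Slc7a10) to 9667 (Glul) in the WT means, and for each gene the blue and the red points overlap.

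Over the 26 astrocyte genes with a RefSeq promoter window, the metal response core was found in 10 (38.5%), against 28.2% of all genes. The STAT motif TTCNNNGAA was found in 5 (19.2%, against 9.55%), those of Gfap, Slc1a3, Aldoc, Ntsr2 and Acsbg1. The SOX motif ACAATGG and the NFI motif, TGGC and GCCA with 5 bases between them, were found in 0 of 26, against 4.15% and 0.925% of genes. These letters were searched on both strands, and no relation between matches and fold changes was tested.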

How the data were processed

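Total RNA of cerebral cortex was made into stranded mRNA libraries, per the labels. The authors aligned reads to GRCm39 with STAR, counted reads per gene with featureCounts, used DESeq2, and deposited whole-number counts per library without pooling. The submitters' processing notes name STAR 2.7.9a, featureCounts 1.5.1 and DESeq2 1.40.2, and the study's methods name other versions of STAR and DESeq2. The strand setting and annotation release are not given in the sources used here. A second deposited table, of normalized values, was not used here.

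Deposited counts were tested across all genes with DESeq2 1.42.0 in R 4.3.3 (genotype, default size factors, independent filtering and Benjamini-Hochberg adjustment at 0.05, which set aside genes with a mean normalized count under 5.83). Fold changes are unshrunken, and 95% intervals are normal approximations. edgeR 4.0.16 quasi-likelihood, limma 3.58.1 voom, TMM or total-count size factors, a filter of 10 counts in 4 libraries, no independent or Cook filtering, the replicate block, the 6 Xist-high libraries and leaving out each library were alternatives, and 2 combinations of the block were added after seeing the data. Programs were tested on simulated data drawn without a replicate effect, which does not bear on the calls made with the block.

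The labels do not say what replicate numbers stand for or that libraries came from separate animals, so p-values measure the spread between these libraries. Deviations from the group mean correlated at 0.628, 0.381, 0.233 and 0.327 between same-numbered libraries over 13422 genes and at -0.375 to 0.144 between others, so the numbers were treated as pairs. Replicates differed by more than sampling noise (chi-square per degree of freedom 5.52 to 22.6). The libraries held 20396357 to 43575900 counts, and both counting error and the spread between libraries enter the standard errors.

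The 31 genes, the lists and the motifs were chosen with earlier results of these data known. Named were all 31 genes, genes overlapping them in exons, and in each list the called genes or else the gene of lowest p averaging 10 or more normalized counts; genes called only with the block, and Lcn2, were named after their values were seen. The gene this rule gives for 1 list is not reported here. Lists covered further astrocyte genes, glutamate and glutamine handling, water and potassium partners, lipoprotein handling, metal response, glial transcription, reactive astrocytes and 10 other cell types. Positions, exon lengths and overlaps come from GENCODE M39 (98.8% of identifiers found), promoter windows from RefSeq (26 of 31 genes).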

Additional observations from a re-analysis of the deposited data

Results flagged for a closer look

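In groups of 4 libraries, 1 library stood apart from the other 3 when its gap to the nearest of them took more of the group's range than Dixon's 95% critical value. Of 62 groups screened (31 genes in 2 genotypes) 11 were apart, where chance gives about 1 in 20 groups, or 3.1 if groups were independent, which genes of 1 library are not. In each of the 11 the library was replicate 1 and the lowest of its genotype, 5 times in L192P and 6 times in WT.

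In both genotypes this was so for 3 genes. Slc1a3 had a gap of 0.864 of the range in L192P replicate 1 (6156 normalized counts, others 9227 to 9711) and 0.890 in WT replicate 1 (6847, others 9205 to 9495). Glul had gaps of 0.835 (24580, others 36651 to 39043) and 0.915 (28163, others 40900 to 42080). Acsbg1 had gaps of 0.908 (1748, others 3095 to 3231) and 0.873 (2130, others 3225 to 3384).

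In L192P alone Aldoc (0.831) and Clu (0.840) were apart, and in WT alone Gja1 (0.842), Slc6a11 (0.877) and Sparcl1 (0.966). The replicate 1 libraries were those with little Xist RNA and the lowest share of mitochondrial counts, and the part of either in these values was not tested.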

How the results depend on the processing

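Every one of the 31 genes stayed above an adjusted p of 0.05 in edgeR, limma voom, TMM and total-count size factors, the count filter and the fits without independent or Cook filtering. The number of genes called in all was 253, and 53 with edgeR, 45 with limma voom, 533 with the replicate block, 500 in the 6 Xist-high libraries, 572 with both of these, 513 with the block in edgeR, and 112 to 496 when 1 library was left out. Total-count size factors gave 168 higher and 64 lower genes, against 147 and 106. Called among the 31 were 2 with the replicate block, 1 in the 6 Xist-high libraries, 2 with both, 1 with the block in edgeR, and 0 to 1 with 1 library left out (1, Fabp7, without L192P replicate 1). Over the 17 other lists 4 genes were called, 0 with edgeR and 12 with the block. The cause of these differences was not tested. The median log2 fold change of the 31 genes lay between -0.11 and 0.082 with 1 library left out.

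The direction was the same in each of 19 alternatives for 12 of 31 genes. Below or above 0 against the reported sign were Sparcl1 with edgeR (0.00092), the count filter (0.00042), the block (5.9e-05), blocked edgeR (0.0018) and total counts (0.024), Aqp4 with limma voom (-0.0024), TMM (-0.0070), the block (-0.0033) and blocked edgeR (-0.0017), and Gjb6 with limma voom (-0.0017). So were Slc1a3 (0.013), Aldoc (0.018), Slc4a4 (0.00061), Clu (0.013) and Mt3 (0.021) with total counts, and Slc1a3 and Mt3 in the 6 Xist-high libraries (0.019 and 0.042, or 0.019 and 0.032 with the block). Leaving out 1 library turned the sign of 19 genes, with log2 fold changes of Acsbg1 -0.24 to 0.065, Aldh1l1 -0.27 to 0.013, Aldoc -0.14 to 0.13, Apoe -0.060 to 0.18, Aqp4 -0.080 to 0.079, Cbs -0.18 to 0.095, Clu -0.11 to 0.085, F3 -0.15 to 0.039, Gjb6 -0.051 to 0.14, Id3 -0.040 to 0.18, Mlc1 -0.094 to 0.15, Mt3 -0.11 to 0.10, Slc1a2 -0.22 to 0.0093, Slc1a3 -0.11 to 0.12, Slc4a4 -0.10 to 0.057, Slc6a11 -0.013 to 0.20, Slc7a10 -0.19 to 0.0066, Sox9 -0.081 to 0.24 and Sparcl1 -0.093 to 0.082. The largest number turned, 11, was without L192P replicate 1. Over all 8 libraries the replicate block changed the DESeq2 calls of 2 of the 31 genes, Glul and Atp1b2, and of no other of the 31. In the 6 Xist-high libraries it changed that of Gfap (adjusted p = 0.663 without and 0.00187 with the block). With standard errors of 0.10 to 0.25, changes of the size of most fold changes here were not detectable with genotype alone.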
